A study of Mus musculus with 6 samples.

Results

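The genes described here are the 5 genes of the G-protein beta subunits, Gnb1 to Gnb5, and 5 genes of regulators of G-protein signalling, Rgs2 to Rgs6, in mouse hearts that differed in the thioredoxin-interacting protein Txnip. These 10 genes, of 49315 in the deposited count table and 12777 that passed the filter on low counts, were named as a group after the comparison of genotypes had been seen. Rgs2 and Gnb3 were selected on that same comparison, so the differences between genotypes below are a description of the members and not a test of them. All 10 members passed the filter, with between 95 and 6300 reads in any one heart.

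Total RNA was sequenced from the hearts of C57BL/6 mice of 2 genotypes, wild-type (3 hearts) and conditional knock-in of Txnip C247S (3 hearts), the latter with a changed cysteine in the protein. The labels name MerCreMer, a recombinase activated by tamoxifen, and 4-hydroxytamoxifen for both genotypes. Whether the wild-type mice had the recombinase too is unclear from them, and no promoter, sex, age, litter or batch is given. Wherever 1 gene is compared between hearts, its level is in CPM, the count scaled to library size after trimmed-mean (TMM) normalisation. Wherever single genes are compared with each other, the level is in TPM, which also divides by gene length. Sums over the pathway and marker lists, and the part of 1 gene in such a sum, are in CPM and not divided by length.

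Heart cells receive adrenaline, noradrenaline, acetylcholine, angiotensin and endothelin through receptors that activate heterotrimeric G proteins. An active receptor makes the alpha subunit exchange GDP for GTP and part from the beta-gamma dimer, and both parts then act on effectors such as adenylyl cyclase, phospholipase C and the potassium channel of pacemaker and atrial cells. RGS proteins end the signal: they speed up the hydrolysis of GTP by the alpha subunit, so that the trimer forms again. Rgs2 is known for its preference for the Gq family, and its gene for a rapid response to hormones. Rgs3, Rgs4 and Rgs5 act on Gi and Gq alpha subunits, and Rgs6, of the R7 group, acts on Gi and Go and is bound to Gnb5.

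Rgs2 (ENSMUSG00000026360, GRCm38 1:143999338-144004161, minus strand) lies on the same chromosome as Rgs4 (ENSMUSG00000038530, 1:169741477-169747642, minus strand) and Rgs5 (ENSMUSG00000026678, 1:169655501-169695813, plus strand). The 250 bases before the RefSeq start of each (build GRCm38.p6) are shown because Rgs2 was the RGS member that differed between genotypes, whereas its relatives Rgs4 and Rgs5 were not called. They are Rgs2 at chr1:144004150-144004399, Rgs4 at chr1:169747643-169747892 and Rgs5 at chr1:169655251-169655500, each written 5′ to 3′ on the strand of its gene. Capitals mark matches, on either strand, to TGACG (the core of the cAMP response element), CCAAT or TATAAA.
Rgs2: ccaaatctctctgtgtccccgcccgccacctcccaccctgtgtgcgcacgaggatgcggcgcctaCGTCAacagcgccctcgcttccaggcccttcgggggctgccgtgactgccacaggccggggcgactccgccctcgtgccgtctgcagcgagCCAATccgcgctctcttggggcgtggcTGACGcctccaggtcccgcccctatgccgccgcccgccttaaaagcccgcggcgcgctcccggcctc
Rgs4: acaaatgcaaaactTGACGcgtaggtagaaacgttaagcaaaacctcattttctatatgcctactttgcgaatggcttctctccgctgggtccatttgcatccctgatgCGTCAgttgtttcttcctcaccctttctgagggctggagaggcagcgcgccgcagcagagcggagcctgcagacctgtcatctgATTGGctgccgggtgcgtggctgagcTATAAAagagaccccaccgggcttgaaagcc
Rgs5: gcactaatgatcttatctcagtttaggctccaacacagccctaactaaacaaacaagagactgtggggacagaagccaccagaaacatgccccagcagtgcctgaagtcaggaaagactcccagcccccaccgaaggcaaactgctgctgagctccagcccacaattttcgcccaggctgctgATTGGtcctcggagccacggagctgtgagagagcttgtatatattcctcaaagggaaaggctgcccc
The Rgs2 window held TGACG at 2 places, beginning 185 and 67 bases before the start, and CCAAT at 1 place, 94 bases before it. The Rgs4 window also held TGACG at 2 places, 236 and 141 bases before the start, with CCAAT at 57 and TATAAA at 31 bases. The Rgs5 window held CCAAT alone, 67 bases before the start. Of 32851 windows of the same length before the genes in the RefSeq table, 17.8% held TGACG, 33.8% CCAAT and 12.4% TATAAA. Neither the full element TGACGTCA, which contains TGACG and was in 1.55% of windows, nor the E-box CACGTG, in 6.02%, was in these 3 windows. A match is a run of letters and not a measured binding site. The table matched 8 of the 10 members; Gnb3 and Gnb4 had no entry.

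Rgs2 was higher in the knock-in hearts and Gnb3 lower, each by a little over 2-fold, while the other 8 members differed by 0.40 or less on the log2 scale in the edgeR fit to all genes. Called here means a Benjamini-Hochberg adjusted p under 0.05 over all 12777 genes in edgeR's quasi-likelihood test. That fit called 2 of the 10 members, against 0.297% of all genes tested, 0.11% with higher and 0.188% with lower levels in knock-in than in wild-type hearts. The values of the 3 wild-type and the 3 knock-in hearts did not overlap for 2 of 10 members, against 16.1% of all genes tested. Since the members were chosen by this comparison, nothing is read from these shares. The median log2 fold change of the members, knock-in over wild-type, was 0.10 against -0.01 over all genes tested, and the median size of the change regardless of sign was 0.16 against 0.14.

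Gnb3 (ENSMUSG00000023439, 6:124834240-124840275, minus strand) encodes the beta subunit known from cone photoreceptors, and a common variant of its human counterpart has been studied in blood pressure. In the wild-type hearts Gnb3 stood at 20.5, 19.5 and 14.9 CPM (301, 281 and 215 reads), and in the knock-in hearts at 8.85, 9.09 and 6.48 CPM (136, 138 and 95 reads). The lowest wild-type heart was thus above the highest knock-in heart. The means were 18.3 ± 3.00 CPM (SD, n = 3) and 8.14 ± 1.45 CPM (SD, n = 3), 2.25-fold lower in the knock-in hearts. On the log2 scale this was -1.17 ± 0.18 (SE), and the edgeR result on which Gnb3 was selected had an adjusted p of 0.0379. Its adjusted p was above the threshold when wild-type replicate 1, wild-type replicate 2 or knock-in replicate 3 was left out (0.126, 0.159 and 0.168), and under limma-voom (0.0514). Of the 31-base words of its transcript, 0.11% occur in transcripts of other genes, and no other annotated gene overlaps it.

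The genotypes overlapped for the other 4 beta subunits, 0 of which were called. Gnb1 (ENSMUSG00000029064, 4:155491361-155559269), a widely expressed beta subunit, stood at 97.0, 88.4 and 93.9 CPM in the wild-type and 104, 92.4 and 109.5 CPM in the knock-in hearts. Gnb2 (ENSMUSG00000029713, 5:137528127-137533510), likewise widely expressed, stood at 117.8, 115.0 and 95.5 CPM in the wild-type and 120.6, 115.1 and 119.3 CPM in the knock-in hearts. For both genes the genotypes overlapped, with log2 fold changes of 0.13 ± 0.10 (SE) for Gnb1 and 0.11 ± 0.11 (SE) for Gnb2. Gnb4 (ENSMUSG00000027669, 3:32580332-32616585), the least abundant per length, stood at 11.7, 9.28 and 7.27 CPM in the wild-type and 12.3, 8.04 and 12.1 CPM in the knock-in hearts. Its hearts varied by 22.2% to 23.7% (coefficient of variation) within a genotype, and its log2 fold change of 0.20 ± 0.21 (SE) was no larger than its error. Gnb5 (ENSMUSG00000032192, 9:75306288-75345876), the divergent beta subunit that pairs with R7 RGS proteins, stood at 27.4, 27.1 and 27.9 CPM in the wild-type and 28.3, 29.6 and 25.4 CPM in the knock-in hearts. It was the steadiest member among the wild-type hearts, with a coefficient of variation of 1.49%, and its log2 fold change of 0.02 ± 0.11 (SE) changed sign with library-size scaling (-0.02). Gnb2 and Gnb5 share exon positions with other genes, 3.06% of the Gnb2 exon bases with Epo on the same strand and 7.96% of those of Gnb5 with the antisense gene Gm19531, and the strand setting of the counting is not given.

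As a share of beta subunit transcripts (TPM), Gnb3 made up 10.4%, 10.4% and 8.66% in wild-type hearts, against 4.59%, 5.0% and 3.40% in knock-in hearts. Gnb2 held the greatest share in every heart (43.0% to 49.0%), followed by Gnb1 (29.0% to 35.5%), Gnb5 (11.3% to 13.8%) and, below Gnb3, Gnb4 (0.877% to 1.32%). The sum of the 5 beta subunit genes was 138 to 162 TPM in the wild-type and 147 to 155 TPM in the knock-in hearts. These sums overlapped, while the shares of Gnb3 did not. The shares of Gnb2 did not overlap either, at 43.0% to 47.4% in the wild-type and 48.4% to 49.0% in the knock-in hearts. Shares of 1 sum are tied to each other, and the level of Gnb2 itself overlapped between genotypes.

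**Figure D1:**
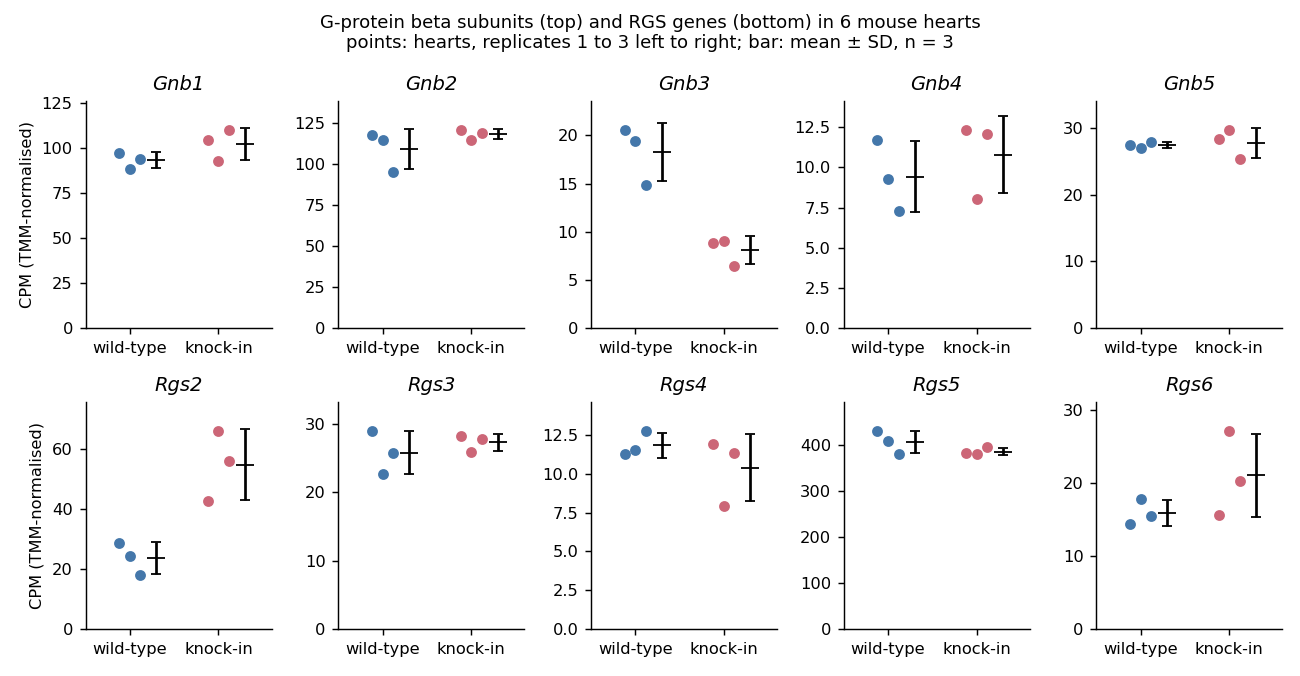
Each panel plots 1 gene, with its level in TMM-scaled CPM on a vertical axis of its own that starts at 0. Points are single hearts, 3 wild-type and 3 knock-in, and the horizontal lines are the genotype means. The genotypes do not overlap for Gnb3 and Rgs2 and overlap for the other 8 genes.

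Among the RGS genes, Rgs2 stood at 28.4, 24.1 and 18.0 CPM in the wild-type hearts (417, 348 and 260 reads) and at 42.4, 65.7 and 55.9 CPM in the knock-in hearts (652, 998 and 820 reads). Every knock-in heart was above every wild-type heart, and the hearts of each genotype spread by 22.3% and 21.4% (coefficient of variation). The means were 23.5 ± 5.24 CPM (SD, n = 3) and 54.7 ± 11.7 CPM (SD, n = 3), a 2.33-fold difference. On the log2 scale edgeR gave 1.22 ± 0.19 (SE), with an adjusted p of 0.0399, again the value on which the gene was selected. The adjusted p was above the threshold when wild-type replicate 2, wild-type replicate 3 or knock-in replicate 3 was left out (0.213, 0.144 and 0.209), and under limma-voom (0.0538). None of its 31-base words occur in transcripts of other genes.

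Rgs5, the RGS gene known as a marker of pericytes (the mural cells of capillaries), was the most abundant member. It stood at 429, 409 and 381 CPM in the wild-type and 382, 379 and 394 CPM in the knock-in hearts, overlapping, with a log2 fold change of -0.08 ± 0.09 (SE). Rgs4, whose gene ends 45664 bases from the end of Rgs5 on the opposite strand, stood at 11.2, 11.5 and 12.7 CPM in the wild-type and 11.9, 7.91 and 11.3 CPM in the knock-in hearts. Knock-in replicate 2 alone was low, and the log2 fold change of -0.19 ± 0.17 (SE) turned to 0.04 when that heart and wild-type replicate 3 were both left out. Rgs3 (ENSMUSG00000059810, 4:62559847-62704001) stood at 28.9, 22.7 and 25.7 CPM in the wild-type and 28.2, 25.9 and 27.7 CPM in the knock-in hearts. All 3 knock-in hearts lay within the range of the wild-type hearts, with a log2 fold change of 0.08 ± 0.12 (SE).

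Rgs6 (ENSMUSG00000021219, 12:82588292-83162056), known in the heart for ending the slowing of the beat by acetylcholine, stood at 14.4, 17.9 and 15.5 CPM in the wild-type and 15.7, 27.1 and 20.4 CPM in the knock-in hearts. Knock-in replicates 2 and 3 were above all wild-type hearts and knock-in replicate 1 was within their range. The log2 fold change was 0.40 ± 0.19 (SE), the greatest among the members that were not called (adjusted p = 0.517 in edgeR). It was 0.17 when wild-type replicate 3 and knock-in replicate 2 were both left out.

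Of the transcripts (TPM) of these 5 RGS genes, Rgs2 made up 5.12% to 7.12% in the wild-type and 11.3% to 16.6% in the knock-in hearts, and Rgs5 made up 85.8% to 86.6% and 76.4% to 81.0%. Shares of 1 sum are tied to each other, so the lower Rgs5 share mirrors the higher Rgs2 level, and Rgs5 itself overlapped between genotypes. The sums, 205 to 239 TPM in the wild-type and 218 to 237 TPM in the knock-in hearts, overlapped.

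Counts within a genotype differed most between wild-type replicate 3 and its fellows (chi-square per degree of freedom of at least 19.0, against 6.70 for the other pair) and between knock-in replicate 2 and its fellows (14.0 and 25.1, against 7.0). Wild-type replicate 3 also had the greatest share of mitochondrially encoded reads, 28.0% against 22.9% to 24.3%. Without these 2 hearts, a setting added after the data had been seen that leaves 2 hearts a genotype, the log2 fold change was 0.91 for Rgs2 and -1.37 for Gnb3, and both were called. Total counts were 14146048 to 15620476 a heart, so 3 reads, taken as the floor of detection, equal 0.195 to 0.208 CPM, and all members were far above it. Txnip itself was lower in the knock-in hearts, at 438, 391 and 429 CPM against 724, 791 and 741 CPM. The hearts are separate samples, and the edgeR p-values set the difference between genotypes against the spread between hearts, estimated with help from all genes.

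**Figure D2:**
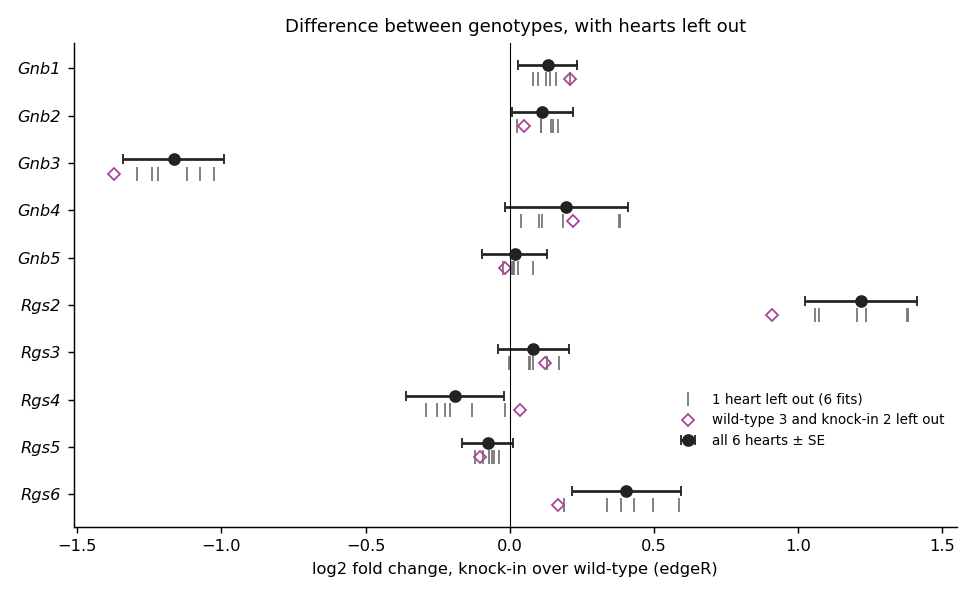
The horizontal axis is the log2 fold change, knock-in over wild-type, from edgeR, and each line is 1 gene. Filled points with bars are the fits to all 6 hearts with their SE, vertical ticks the 6 fits that leave out 1 heart each, and diamonds the fit with both wild-type replicate 3 and knock-in replicate 2 left out. Rgs2 stays between 0.91 and 1.38 and Gnb3 between -1.37 and -1.03, and Gnb5, Rgs3 and Rgs4 cross 0.

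The level of a gene was not used to choose the members, so the order of their levels was tested between neighbours over the 6 hearts. From the highest, the mean levels were 186 ± 11.6 TPM for Rgs5, 71.6 ± 6.13 for Gnb2, 48.9 ± 3.85 for Gnb1, 23.0 ± 11.1 for Rgs2 and 19.0 ± 0.885 for Gnb5 (SD, n = 6). They continued with 10.8 ± 4.94 TPM for Gnb3, 7.66 ± 1.13 for Rgs4, 5.25 ± 0.443 for Rgs3, 3.95 ± 1.01 for Rgs6 and 1.70 ± 0.374 for Gnb4 (SD, n = 6). The order held in 6 of 6 hearts for 6 of the 9 neighbouring pairs, each with a two-sided exact sign-flip permutation p of 0.03125, the smallest that 6 hearts can give, and 0.0469 after adjustment over the 9 pairs. These were Rgs5 over Gnb2 (2.61-fold), Gnb2 over Gnb1 (1.46-fold), Gnb1 over Rgs2, Gnb5 over Gnb3, Rgs4 over Rgs3 (1.45-fold) and Rgs6 over Gnb4 (2.31-fold). All 6 sat at the smallest p, so the adjusted value depended only on how many pairs reached it. Neighbours were also ranked by their means in these same hearts. Gnb1 over Rgs2 was 3.42-fold in the wild-type and 1.61-fold in the knock-in hearts, and Gnb5 over Gnb3 was 1.28-fold and 2.91-fold. The other 3 pairs could not be ordered over the 6 hearts: Rgs2 and Gnb5 (adjusted exact permutation p = 0.688), Gnb3 and Rgs4 (0.281) and Rgs3 and Rgs6 (0.0804). Rgs2 was above Gnb5 in 0 of 3 wild-type and 3 of 3 knock-in hearts, and Gnb3 was above Rgs4 in 3 of 3 wild-type and 1 of 3 knock-in hearts, so for both pairs the order differed with the genotypes that were pooled.

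Gene length bears on this order. With the length of the longest transcript in place of all exons, Gnb5 stood above Rgs2 and Rgs3 above Rgs4. By that length 5 pairs kept 1 order in all 6 hearts. Their adjusted exact permutation p was 0.0563, above the threshold because only these 5 reached the smallest p. Rgs3 over Rgs4 was among them, in 6 of 6 hearts (1.51-fold), the reverse of the order by all exons. The order of Rgs3 and Rgs4 thus depended on the length used.

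**Figure D3:**
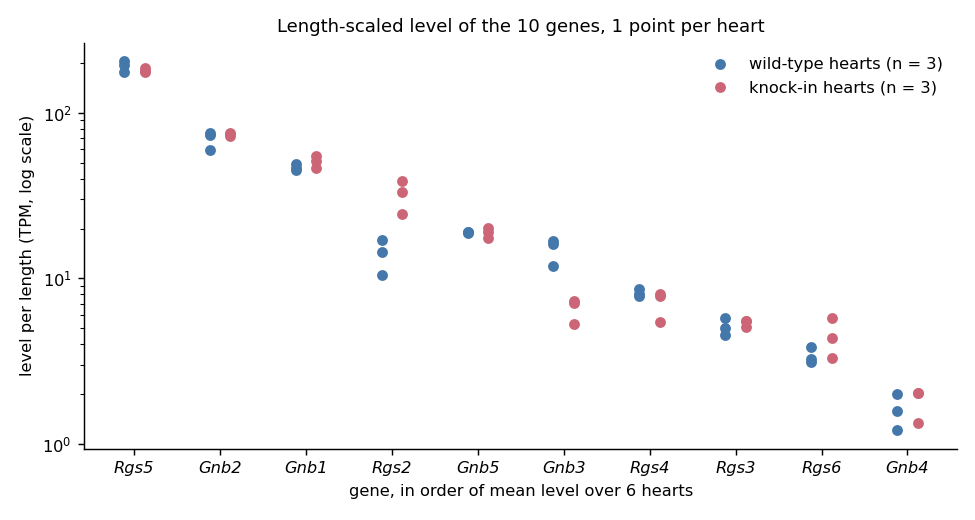
The vertical axis is the level in TPM on a log scale, and genes are placed along the horizontal axis in order of their mean. Points are the single hearts, by genotype. Rgs5 lies highest at 177 to 205 TPM and Gnb4 lowest at 1.21 to 2.04 TPM, and the genotypes separate for Rgs2 and Gnb3.

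The other genes of the pathway were taken from 7 lists of 150 genes, of which 110 passed the filter. Only Adcy1, an adenylyl cyclase, was called by edgeR, and 12 genes, 6 each way, had an unadjusted p under 0.05, that is 10.9% of the list genes against 9.97% of all genes tested. In the 6 lists with 0 genes called by edgeR, 10 of 88 tested genes had an unadjusted p under 0.05, and DESeq2 and limma-voom called 0. Of the alpha subunits that pair with these beta subunits, 0 of 9 were called and 7 of 9 were positive. Against 16.1% of all genes tested, 2 of these 9 did not overlap between genotypes. Their log2 fold changes ran from -0.10 to 0.45, with a median of 0.08. Gnas, the stimulatory alpha subunit, was the most abundant of those named here at 160 ± 17.7 TPM (SD, n = 6). It was followed by Gnai2, an inhibitory one, at 106 ± 11.2 TPM (SD, n = 6). Gnai2 had the smallest p of the alpha subunits (log2 fold change 0.25 ± 0.10 (SE), adjusted p = 0.431 in edgeR). Gnaq and Gna11, which Rgs2 acts on, had log2 fold changes of 0.08 ± 0.12 (SE) and 0.06 ± 0.09 (SE).

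Of the gamma subunits, which join the beta subunits in a dimer, 0 of 7 tested were called and 0 had an unadjusted p under 0.05. Their median log2 fold change was 0.12. Gng11 stood at 78.4 ± 6.51 TPM and Gng5 at 60.8 ± 8.11 TPM (SD, n = 6). Gng5 had the smallest p, with a log2 fold change of -0.24 ± 0.11 (SE). The other RGS genes and their partners gave 0 of 10 called and 0 at an unadjusted p under 0.05. Of these, 2 were positive and 8 negative, with a median of -0.20. Among the partners of Gnb5, Rgs7bp, which tethers R7 RGS proteins to the membrane, had a log2 fold change of -0.55 ± 0.25 (SE), and of -0.28 without wild-type replicate 3. Rgs9 had one of -0.56 ± 0.30 (SE), at 7.23, 5.19 and 6.16 CPM in the wild-type and 3.58, 2.64 and 6.41 CPM in the knock-in hearts. Those groups overlapped through knock-in replicate 3. Rgs7 had a log2 fold change of -0.44 ± 0.43 (SE), at 0.455 to 0.970 CPM. The member Rgs6, also a partner of Gnb5, went the other way (0.40 ± 0.19 (SE)). Rgs11 reached at most 3 reads and was not tested. Receptor kinases, arrestins and chaperones of the G proteins gave 0 of 13 called and 0 at an unadjusted p under 0.05, with a median of 0.01, and Grk5, a receptor kinase, had the smallest p (0.34 ± 0.16 (SE), and 0.20 without knock-in replicate 2).

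Of the effectors, 1 of 22 tested was called, with 5 positive and 17 negative and a median of -0.15. Adcy1 stood at 1.43, 1.59 and 1.31 CPM in the wild-type and 4.03, 4.41 and 3.27 CPM in the knock-in hearts, with no overlap. Its log2 fold change of 1.43 ± 0.24 (SE, adjusted p = 0.0399 in edgeR) was called in 1 of the 6 fits that left out 1 heart, that without knock-in replicate 2, and not by limma-voom (adjusted p = 0.0666). The potassium channel genes Kcnj5 and Kcnj3, whose products beta-gamma dimers open and Rgs6 restrains, stood at 32.6 ± 8.78 and 21.01 ± 6.12 TPM (SD, n = 6). Their log2 fold changes were 0.34 ± 0.21 (SE) and -0.07 ± 0.29 (SE).

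Of 24 receptors tested, 0 were called and 5 had an unadjusted p under 0.05, with a median of -0.10. Adra1b, an alpha-1 adrenoceptor that signals through Gq, had the smallest p of them. It stood at 14.9, 17.4 and 20.6 CPM in the wild-type and 22.4, 27.5 and 25.9 CPM in the knock-in hearts. Its log2 fold change was 0.52 ± 0.14 (SE), with an adjusted p of 0.227 in edgeR. It was called by edgeR with no filter on low counts (adjusted p = 0.0267). The other alpha-1 adrenoceptors went the other way, Adra1d with a log2 fold change of -0.68 ± 0.26 (SE) and Adra1a with one of -0.19 ± 0.26 (SE). Adrb1, the main beta adrenoceptor of heart muscle, was chosen for mention after its values were seen. It stood at 10.6, 10.7 and 15.8 CPM in the wild-type and 6.70, 9.68 and 7.09 CPM in the knock-in hearts. The adjusted p of Adrb1 was 0.274 in edgeR (log2 fold change -0.66 ± 0.20 (SE)). The genotypes did not overlap for 4 of the 24 receptors, Adra1b, Adra1d and Adrb1 among them, against 16.1% of all genes tested.

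Rgs2 is itself a hormone-responsive gene, so genes of the immediate-early and cAMP response are given beside it. Of these, 0 of 25 were called and 4 had an unadjusted p under 0.05, with 13 positive and 12 negative and a median of 0.07. Pde10a, a phosphodiesterase, had the smallest p (-1.05 ± 0.33 (SE), adjusted p = 0.284 in edgeR). The summed level of the list was 655, 624 and 470 CPM in the wild-type and 499, 848 and 492 CPM in the knock-in hearts. Knock-in replicate 2 was the highest of all hearts for this list and for Rgs2, while knock-in replicates 1 and 3 lay within the wild-type range for the list and above it for Rgs2.

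**Figure D4:**
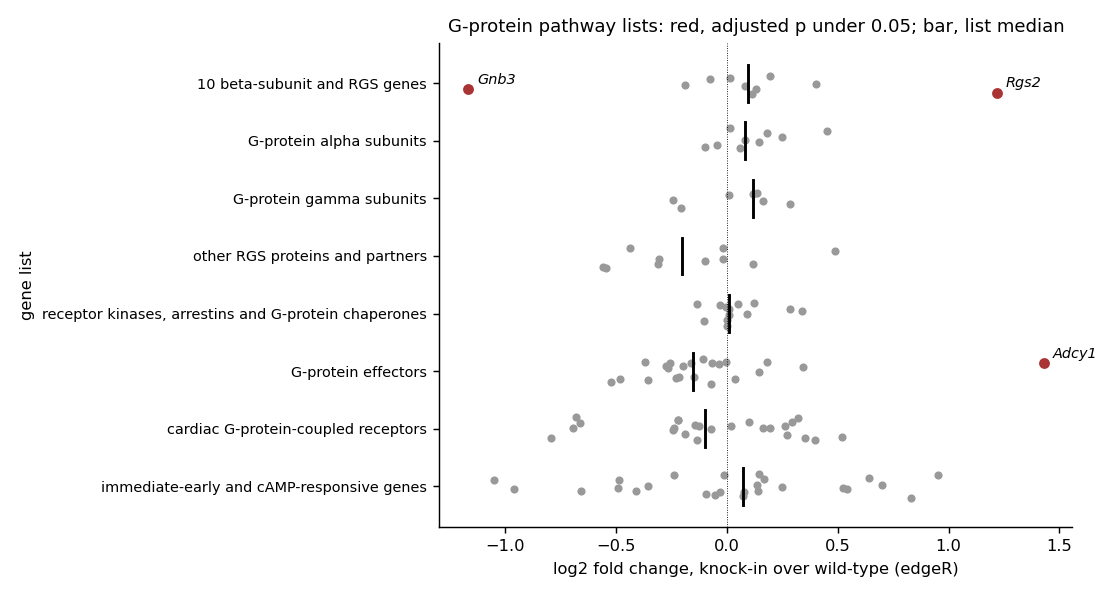
Each point is 1 tested gene of a pathway list, placed by its log2 fold change, knock-in over wild-type, with the 10 members on a line of their own. Larger red points are called, smaller grey points are not, and short vertical lines are medians. Most genes lie close to 0, and the called points are Rgs2, Gnb3 and Adcy1.

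The hearts were tissue of many cell types, in which fewer cells of a type and less RNA per cell cannot be told apart. Marker lists of 11 cell types were therefore measured beside the members. Of the pericyte markers, the cells that Rgs5 marks, 0 of 10 were called by edgeR, with 0 at an unadjusted p under 0.05 and 0 by DESeq2 or limma-voom. Their median log2 fold change was 0.14, and their summed level was 363 to 440 CPM in the wild-type and 366 to 479 CPM in the knock-in hearts, overlapping as Rgs5 did. Abcc9, which heart muscle also expresses, made up 52.2% to 70.7% of that sum, and without it the sums were 143 to 173 CPM and 141 to 177 CPM, again overlapping. None of the 10 was at 0. Red blood cell markers had 6 of 8 called higher, with sums of 487 to 665 CPM in the wild-type and 1495 to 1965 CPM in the knock-in hearts. Smooth muscle markers had 1 of 8 called, Acta2, lower. Their sums were 289 to 331 CPM and 196 to 202 CPM, but without Acta2 the other 7 overlapped, at 107 to 133 CPM and 103 to 128 CPM. Macrophage markers were negative for 10 of 10 genes, with 1 called by edgeR (Lyz2) and 2 by DESeq2, 6 at an unadjusted p under 0.05 and 8 not overlapping between genotypes. Their sums were 336 to 388 CPM and 255 to 273 CPM, and 170 to 205 CPM and 146 to 153 CPM without Lyz2. Over all genes tested, 0.297% were called by edgeR, 9.97% had an unadjusted p under 0.05 and 16.1% did not overlap between genotypes. Ventricular muscle markers were positive for 8 of 9 genes, with 1 called (Myl2, higher) and 3 at an unadjusted p under 0.05, and their sums were 82108 to 85656 CPM and 91355 to 100978 CPM. The ventricular markers were thus abundant in all 6 hearts, as the tissue label has it. The part of these shifts in the values of Rgs2 and Gnb3 was not tested.

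In the other 7 lists, pericytes included, 0 of 46 tested genes were called by edgeR, 1 had an unadjusted p under 0.05, and DESeq2 and limma-voom called 0. Of these, the atrial and sinoatrial lists bear on Rgs6 and the potassium channel. Only 4 of 9 atrial markers were tested, since Myl7, Sln and Bmp10 reached at most 5, 4 and 3 reads in any heart. The libraries thus held little RNA of atrial muscle, and the atrial list says little of Rgs6 or the channel in atrial cells. The atrial sums were 126 to 275 CPM in the wild-type and 175 to 597 CPM in the knock-in hearts. Nppa, a natriuretic peptide gene that ventricular muscle also expresses under stress, made up 81.6% to 96.0% of each sum. The sinoatrial sums were 26.2 to 29.5 CPM and 26.5 to 30.6 CPM, with Isl1 at 0 in every heart. The endothelial sums were 1085 to 1460 CPM and 1055 to 1538 CPM, and the fibroblast sums 1527 to 1568 CPM and 1443 to 1801 CPM. Neuronal and glial sums were 4.91 to 6.44 CPM and 4.84 to 6.98 CPM, and platelet sums 16.6 to 22.4 CPM and 11.3 to 29.4 CPM.

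The genes whose pattern over the 6 hearts was most like that of Rgs2 were Fndc10, Nrg1, Zfp983, Adcy1 and Sbk3. Likeness was the root mean square difference of centred log2 CPM over the 6 hearts, among 12111 genes with a mean of at least 1 CPM. It was 0.193 for Fndc10, 0.243 for Nrg1 (neuregulin 1), 0.254 for Zfp983, 0.269 for Adcy1 and 0.277 for Sbk3. Fndc10 and Zfp983 had low levels, 0.484 to 1.78 CPM and 0.623 to 1.58 CPM over the 6 hearts. Nrg1 stood at 2.32, 1.25 and 1.38 CPM in the wild-type and 2.67, 3.62 and 4.16 CPM in the knock-in hearts. Of these 5 genes, edgeR called Adcy1 alone. For Rgs5 the nearest were Psmd11 (0.0209), Sh2b1 (0.0218) and Ube2q1 (0.0276), none of them a marker on the pericyte list. With each genotype centred apart, 0 of the 5 genes and 0 of the 3 were again among the nearest.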

How the data were processed

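The authors deposited whole-number read counts per gene with no normalization, 1 column a heart, matched to samples by their descriptions. Per the labels' protocols, RNA was isolated with an RNeasy kit and libraries were made with a NEBNext Ultra II kit. GRCm38.p6, STAR, DESeq2, featureCounts and Subread 1.5.2 appear in the submitters' processing notes without roles. Annotation release and strand setting: not given in the sources used here. Positions and lengths came from GENCODE release M21 (GRCm38), which held 49056 of 49315 identifiers.

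Genes were tested over all 6 hearts with edgeR 4.0.16 in R 4.3.3 (filterByExpr by genotype, TMM scaling, glmQLFit with robust estimation, glmQLFTest). SEs were derived from the log2 fold change and its F statistic. TPM divides counts by merged exon length. Neighbouring levels were compared with exact sign flips of log2 differences per heart. The functions were tested on simulated counts. Reads carry no molecular identifiers, so the floor of 3 counts covers counting error only.

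The members and gene lists were chosen with earlier results of these data known. Genes named from each list are its called genes or the 1 with the smallest p, beside genes of known role to the members. For likeness, log2 CPM used a prior count of 2. Adrb1, Adra1a, Adra1d, Nrg1 and the partners of Gnb5 were chosen after their values were seen. So were the marker sums without single genes, levels by genotype and the genes within 250000 bases of a member. The fit leaving out both wild-type replicate 3 and knock-in replicate 2 was also chosen then. Alternatives were DESeq2 1.42.0 (after the same filter), limma-voom (limma 3.58.1), scaling by upper quartile, RLE or library size, filtering on a mean of 1 CPM or not at all, non-robust estimation, leaving out each heart, the mitochondrial genes or the 20 most abundant genes, longest-transcript lengths and likeness centred within genotype.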

Additional observations from a re-analysis of the deposited data

How the results depend on the processing

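Rgs2 lay between 1.06 and 1.38 (log2) and Gnb3 between -1.29 and -1.03 over the 16 alternatives to the edgeR fit, and each was called in 12 of them; adjusted p ran from 8.95e-17 to 0.213 and from 1.38e-09 to 0.168. Of the members, 2 were called with all hearts, 0 by limma-voom and 0 to 2 with 1 heart left out (0 without wild-type replicate 2 or knock-in replicate 3). All genes called numbered 38, and 317 with no filter, 131 by DESeq2, 18 by limma-voom, 5 to 174 with 1 heart left out (174 without knock-in replicate 2) and 392 (171 higher, 221 lower) with both wild-type replicate 3 and knock-in replicate 2 left out. The pathway lists had 1 gene called, 6 with no filter, 0 by limma-voom, 0 to 1 with 1 heart left out and 9 without those 2 hearts. Signs turned for Gnb5 with library-size scaling (-0.0244), with 1 heart left out (-0.0233 to 0.0792) and without the 2 hearts (-0.0152), for Rgs3 with 1 heart left out (-0.0012 to 0.171), and for Rgs4 without the 2 hearts (0.0365). The cause was not tested. No paired analysis was possible because replicate numbers only follow accession order. With 3 hearts a genotype, the exact permutation test of 1 gene cannot give a p below 0.1.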

Other observations

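Genes within 250000 bases of Gnb3 and Rgs2, a window chosen after the values were seen, were measured beside them. Around Gnb3, 14 genes were tested and 0 were called by edgeR, DESeq2 or limma-voom. One of them, Tpi1, a glycolytic enzyme, had an unadjusted p under 0.05 in edgeR (log2 fold change 0.22), and the 14 lay between -0.40 and 0.53 with a median of 0.11. Around Rgs2, 4 genes were tested, with 0 called by edgeR, DESeq2 or limma-voom and 0 at an unadjusted p under 0.05, between -0.19 and 0.13.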
